A study of Mus musculus with 34 samples.

Results

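The comparison set splenic pan T cells labelled Ars2 KO against splenic pan T cells labelled CD28 Y170F, both after 24 h of stimulation with αCD3, αCD28 and rIL-2. Its members are 6 libraries, 3 of each genotype, out of 34 libraries in the series, chosen by their labelled genotype and day. All mice were of strain C57BL/6 and 6 to 12 weeks old, and T cells were obtained by negative selection. The remaining libraries hold unstimulated WT cells and stimulated cells of WT, CD28 KO, CD28 AYAA and DKI mice, at 24 or 72 h, together with the 72 h libraries of both genotypes compared here. The design text calls the libraries of a group biological replicates. CD28 Y170F stood in as the reference because it has 3 libraries of similar depth, whereas WT has 2 at 24 h, and so the comparison sets 1 mutant genotype against another. The labels name no Cre driver, promoter or deletion strategy for Ars2 KO, and do not say whether the Ars2 KO mice carry an altered Cd28 allele.

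ARS2, encoded by Srrt, is a nuclear scaffold that joins the cap-binding complex on newly made capped RNA and passes the transcript on to maturation, export or decay. Replication-dependent histone mRNAs, microRNA precursors, small nuclear and nucleolar RNAs and many short noncoding transcripts are among the RNAs it is known to handle. CD28 is the main costimulatory receptor of T cells, and Y170F exchanges a tyrosine of its cytoplasmic tail that recruits phosphoinositide 3-kinase when phosphorylated for phenylalanine. A point mutation cannot be seen in gene counts, so the Y170F label was not checked by its target.

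Total expected counts were 26.0, 32.0 and 23.7 M (the SI prefix mega) in the Ars2 KO libraries and 21.8, 18.6 and 21.2 M in the CD28 Y170F libraries, and 26.4 and 10.4 M in the 2 WT libraries at 24 h, which carry the numbers 1 and 4. Read from Xist and Y-linked genes, Ars2 KO held 1 male and 2 female libraries and CD28 Y170F 2 male and 1 female. The 10 T cell markers summed to between 1802 and 1967 CPM (counts relative to library size, scaled by TMM) in Ars2 KO and between 1849 and 1907 in CD28 Y170F. The 2 CD8 markers summed to 579 to 730 CPM against 614 to 710, and the 3 CD4 markers to 192 to 225 against 222 to 253. Both genotypes thus carried the defining T cell transcripts at overlapping levels. In bulk RNA, fewer cells of a type and less RNA per cell cannot be told apart.

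Srrt was measured at 33.8, 64.8 and 33.5 CPM in the Ars2 KO libraries and at 219, 220 and 223 CPM in the CD28 Y170F libraries. Every Ars2 KO library lay far below every CD28 Y170F library, and each Ars2 KO library kept part of the transcript. The means were 44.0 ± 18.0 CPM (SD, n = 3) and 221 ± 2.22 CPM (SD, n = 3), so Srrt was 4.99-fold lower, or -2.32 on the log2 scale (SE 0.22, edgeR adjusted p = 3.5e-07). WT number 1 held 244 CPM and WT number 4 held 131 CPM. By 72 h the difference was smaller, at a log2 fold change of -0.81, and the change between the days passed its own test (difference 1.51, adjusted p = 0.0023). Cd28 mRNA stood at 385, 379 and 409 CPM in Ars2 KO and 356, 374 and 365 CPM in CD28 Y170F, and did not pass (log2 fold change 0.10, adjusted p = 0.86). The 24 h libraries labelled CD28 KO held 482 and 476 CPM of Cd28, no lower than WT at 387 and 411, so gene counts do not check that label.

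Among 20 tested genes of the cap-binding complex and its partners, Srrt fell and Zc3h4 rose, and the remaining 18 did not pass. Zc3h4, a zinc finger protein that restricts noncoding transcription, was at 232, 226 and 235 CPM against 156, 165 and 152. The groups did not overlap, and both WT libraries, at 158 and 157 CPM, lay with CD28 Y170F. Its log2 fold change was 0.55 (SE 0.09, adjusted p = 0.00088). Both calls were made again when each of the 6 libraries was left out in turn.

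Across 18292 genes tested, 280 differed at an adjusted p under 0.05, which is 1.53% of the genes. Of these, 188 (1.03%) were higher and 92 (0.503%) lower in Ars2 KO. Differences were mostly small, with a median absolute log2 fold change of 0.81 and 163 of the 280 under 2-fold. The CPM values of the groups did not overlap for 274 of the 280, against 18.2% of all genes tested. The number called moved strongly with single libraries. It was 120 without Ars2 KO library 1, 131 without library 2 and 490 without library 3. It was 147 without CD28 Y170F library 1 and 101 without library 2. With DESeq2 555 genes passed. In a fit of the compared groups alone 56 passed, and 11 with a replicate block added to that fit. Of 108 called genes examined singly, 52 stayed called with each of the 6 libraries left out in turn. Those leave-out fits still took the spread from all groups. In the fit of the compared groups alone 69 of the 108 lost their call, and 98 with the block added. Against WT, Ars2 KO differed at 73 genes (0.399%), and CD28 Y170F differed from WT at 10 genes (0.0547%). The first number was 28, 42 and 156 without Ars2 KO library 1, 2 or 3, 201 without WT number 1 and 33 without WT number 4. The second was 25 without WT number 1, and 6 without WT number 4 or without CD28 Y170F library 1 or 2. These comparisons share libraries with the main one and with each other, so their values are only set side by side.

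A first cluster of differences lay beside Srrt itself, on chromosome 5. The genes near Srrt and Cd28 described here were picked after their values were seen. Of 62 tested genes within 1 Mb of Srrt, 7 (11.3%) were called besides Srrt, 6 higher and 1 lower. Within 10 Mb the share was 11 of 296 (3.72%). Ache, which encodes acetylcholinesterase and ends 0.00124 Mb from Srrt on the opposite strand, was at 8.0, 6.61 and 5.15 CPM in Ars2 KO. In CD28 Y170F it was at 0.0878, 0.101 and 0.0883 CPM, next to nothing in any library. Its log2 fold change was 6.07 (SE 1.07, adjusted p = 0.0021). Ufsp1, a protease acting on the ubiquitin-like protein UFM1, lies between Ache and Srrt and read 11.9, 10.2 and 5.07 CPM against 1.93, 1.06 and 1.77. Its log2 fold change was 2.5 (adjusted p = 0.0024). The noncoding gene 4933404O12Rik, 0.359 Mb away, was at 20.1, 24.5 and 32.8 CPM against 7.60, 6.38 and 7.15. All 3 genes were higher in every Ars2 KO library than in any CD28 Y170F library, and all 3 calls held with each library left out in turn.

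Zan, which encodes a sperm membrane protein, had a log2 fold change of 4.86, Muc3a, a membrane mucin gene, 2.66, and Stag3, a meiotic cohesin subunit, 1.57. These calls were weaker, since Zan lost its call on leaving out 4 of the 6 libraries in turn, Stag3 on 5 and Muc3a on all 6. In the other direction, Gm36266 was at 0.633, 0.470 and 0.608 CPM in Ars2 KO and 3.21, 3.09 and 4.02 in CD28 Y170F, a log2 fold change of -2.59 (adjusted p = 0.0018). A430033K04Rik, a zinc finger gene 1.32 Mb from Srrt, was at 5.66, 4.82 and 4.26 CPM against 13.5, 11.7 and 11.8, with a log2 fold change of -1.33. The closest gene on the other side, Trip6, was at 2.23, 1.38 and 2.31 CPM against 2.42, 2.53 and 1.81 and did not pass (adjusted p = 0.87). The next, Slc12a9, did not pass either (adjusted p = 0.91).

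The 2 WT libraries parted at these genes. WT number 1 read 0.072 CPM for Ache, 1.77 for Ufsp1, 6.92 for 4933404O12Rik, 3.35 for Gm36266 and 11.2 for A430033K04Rik, all near the CD28 Y170F values. WT number 4 read 5.07 CPM for Ache, 5.81 for Ufsp1, 27.4 for 4933404O12Rik, 0.461 for Gm36266 and 4.88 for A430033K04Rik, all near the Ars2 KO values. Number 4 is also the WT library with the lower Srrt level given above. At 24 h Srrt stood at 185 to 187 CPM in CD28 AYAA, 154 to 162 in DKI and 154 and 148 in the labelled CD28 KO libraries. Those levels too lay below WT number 1. The CD28 AYAA, DKI and labelled CD28 KO libraries at 24 h lay between 0.00 and 0.229 CPM for Ache and between 10.4 and 13.2 CPM for A430033K04Rik. None of the 6 chromosome 5 genes Ache, Ufsp1, Zan, Muc3a, 4933404O12Rik and A430033K04Rik passed in the test of Ars2 KO against WT, which averages the 2 WT libraries (adjusted p from 0.29 to 0.60).

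**Figure D1:**
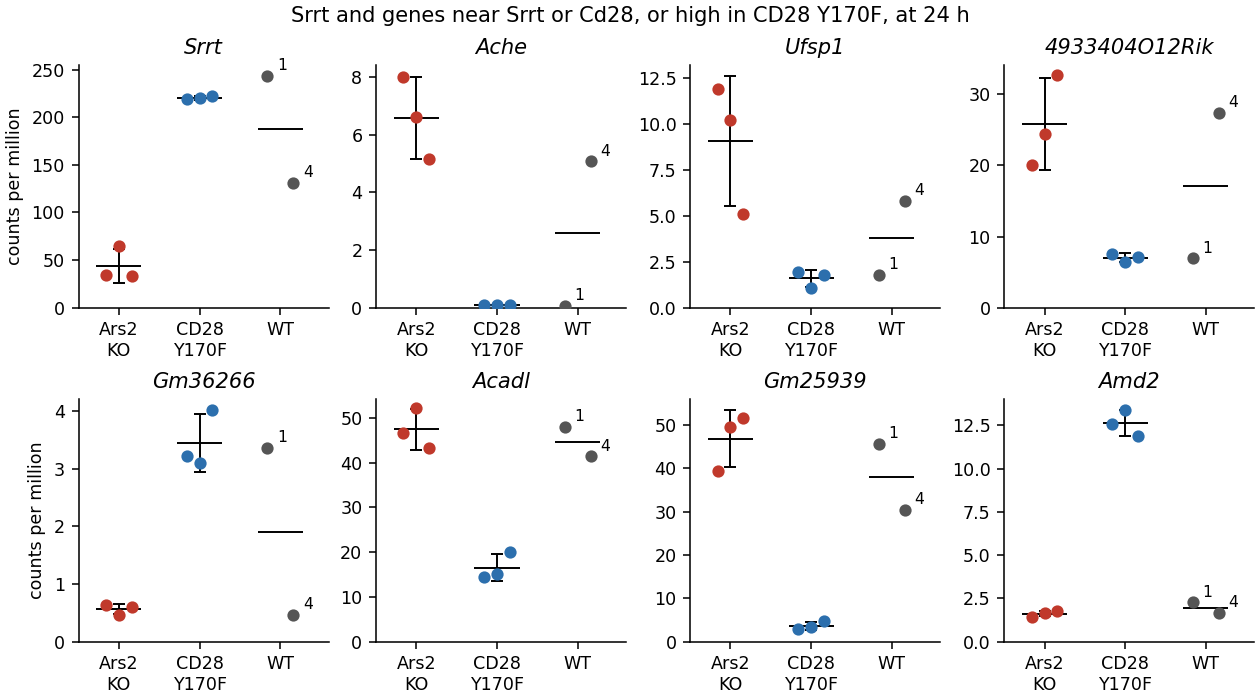
CPM at 24 h (vertical axis, from 0) of Srrt and 7 other genes in Ars2 KO (red), CD28 Y170F (blue) and WT (grey), 1 point per library, with the mean as a bar and the SD (n = 3) as an error bar. WT libraries are marked by their numbers 1 and 4. Number 4 lies with Ars2 KO at Ache, 4933404O12Rik and Gm36266, both WT libraries lie with Ars2 KO at Acadl and Gm25939, and CD28 Y170F is alone at a high Amd2 level.

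A second set of differences lay on chromosome 1, which holds Cd28, the gene that carries the Y170F allele, but not directly beside that gene. Of 25 tested genes within 1 Mb 0 were called by edgeR, DESeq2 or limma-voom and 1 had an unadjusted p under 0.05. Those not called included Ctla4 (log2 fold change -0.09) and Icos (-0.08), the neighbouring costimulatory family members. Within 10 Mb 11 of 156 (7.05%) were called, 9 higher and 2 lower in Ars2 KO. Acadl, the mitochondrial long-chain acyl-CoA dehydrogenase, lies 6.06 Mb from Cd28 and was at 46.7, 52.2 and 43.3 CPM in Ars2 KO against 14.4, 15.2 and 20.1 in CD28 Y170F. The groups were far apart, by 1.52 on the log2 scale (SE 0.15, adjusted p = 1.4e-06). The noncoding gene 6820402A03Rik was at 3.53, 3.45 and 3.24 CPM and had 0 counts in each CD28 Y170F library. Set against a floor of 3 counts over the CD28 Y170F group, it was at least 71.5-fold higher in Ars2 KO.

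Unc80, a subunit of a sodium leak channel, was at 2.94, 1.72 and 1.46 CPM against 0.132, 0.0507 and 0.0883 (log2 fold change 4.39). Map2, a microtubule-associated protein gene, was at 2.01, 1.41 and 0.852 CPM against 0.0439, 0.203 and 0.441 (log2 fold change 2.6), a call lost on leaving out 4 of the 6 libraries in turn. Gm25939, which lies 11.5 Mb from Cd28, was at 39.3, 49.5 and 51.6 CPM against 2.94, 3.44 and 4.77, or 3.65 on the log2 scale (SE 0.27, adjusted p = 9.7e-09). At Acadl, 6820402A03Rik and Gm25939 the WT libraries sat with Ars2 KO. WT read 48.0 and 41.4 CPM for Acadl, 2.85 and 6.27 for 6820402A03Rik and 45.7 and 30.5 for Gm25939. For Unc80 WT read 0.612 and 2.49 CPM, and CD28 Y170F against WT did not pass (adjusted p = 0.16), while for Map2 WT read 3.67 and 1.84 CPM and that test passed (adjusted p = 0.011). CD28 AYAA libraries and those labelled CD28 KO at 24 h sat with CD28 Y170F, at 0 counts for 6820402A03Rik and 5.64 to 14.7 CPM for Acadl, whereas DKI libraries read 31.9 to 36.9 CPM for Acadl. The test of CD28 Y170F against WT gave log2 fold changes of -1.43 for Acadl (adjusted p = 2.9e-05) and -3.36 for Gm25939 (adjusted p = 1.8e-07). Acadl and Gm25939 thus differed between CD28 Y170F and WT, while Ars2 KO against WT gave 0.08 for Acadl (adjusted p = 0.93) and 0.29 for Gm25939 (adjusted p = 0.78).

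**Figure D2:**
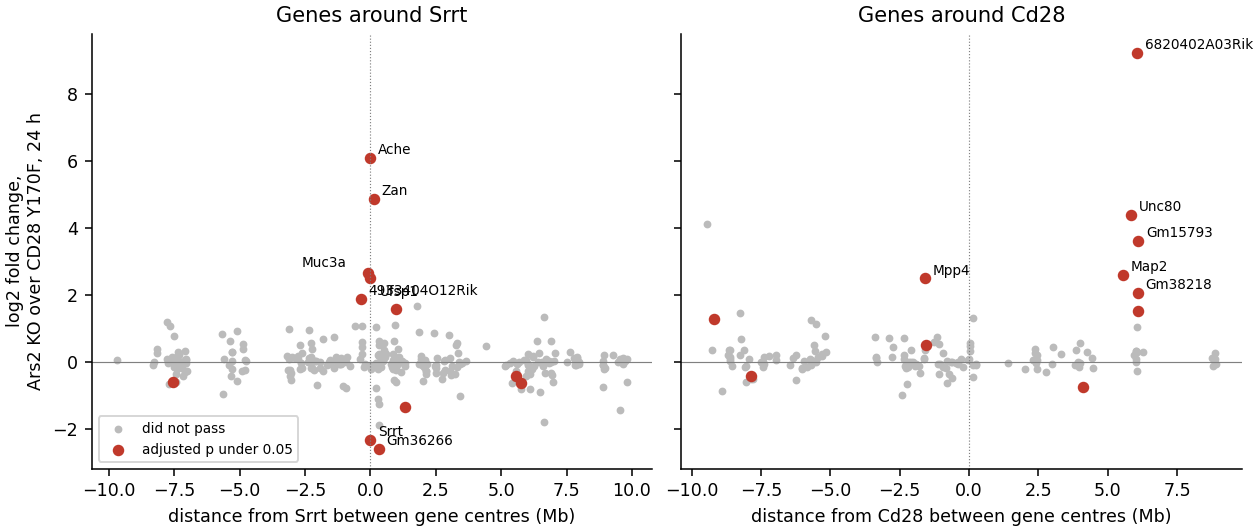
Log2 fold change at 24 h (vertical axis, Ars2 KO over CD28 Y170F) of each tested gene against its distance in Mb from Srrt (left) and from Cd28 (right), measured between gene centres. Red points passed at an adjusted p under 0.05. Ache, Ufsp1, Zan, Muc3a, 4933404O12Rik and Gm36266 stand close to Srrt, and Unc80, Map2 and 6820402A03Rik stand about 6 Mb from Cd28.

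Some genes on other chromosomes also set CD28 Y170F apart from WT. Eda2r, an X-linked receptor of the tumour necrosis factor receptor family that is also a p53 target, was at 78.0, 65.8 and 20.3 CPM in CD28 Y170F, with the female library lowest. The Ars2 KO libraries together held 2 counts, against 3534 in CD28 Y170F, a ratio of 2348 (95% interval 649 to 19394, counting error only). Both WT libraries were at 0. Amd2, a copy of the gene for the polyamine enzyme adenosylmethionine decarboxylase, was at 1.45, 1.66 and 1.78 CPM in Ars2 KO and 12.6, 13.4 and 11.9 in CD28 Y170F, and at 2.27 and 1.66 in WT. Because Amd2 has a near-identical copy, reads may have been split between copies. Ccdc141 was at 20.1, 23.6 and 23.0 CPM in Ars2 KO and 5.80, 6.54 and 8.91 in CD28 Y170F, and WT lay at 21.7 and 36.9, while the CD28 AYAA, DKI and labelled CD28 KO libraries at 24 h read 0.979 to 6.04. Amd2 and Ccdc141 were picked after their values were seen. These 3 genes passed the test of CD28 Y170F against WT too, with log2 fold changes of 13.20 for Eda2r, 2.65 for Amd2 and -2.04 for Ccdc141. In the comparison of Ars2 KO with CD28 Y170F, Ccdc141 lost its call on leaving out 3 of the 6 libraries in turn.

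Genes for ribosomal proteins had small and mostly positive log2 fold changes. Of 83 tested, 15 (18.1%) rose and 0 fell, where 1.53% of all genes were called. The median log2 fold change was 0.19, beside 0.001 over all genes, and 82 of 83 values were above 0, beside 50.2% of all genes. Rpl10a was at 778, 747 and 804 CPM against 576, 590 and 611, or 0.39 on the log2 scale (SE 0.06, adjusted p = 0.00083). Rpl39 was at 528, 519 and 484 CPM against 383, 332 and 405 (log2 fold change 0.45, adjusted p = 0.0014). Rpl32 was at 788, 824 and 789 CPM against 621, 653 and 650 (log2 fold change 0.32). In all 3, every Ars2 KO library exceeded every CD28 Y170F library. Rps18, Rpl34, Rps3, Rps29, Rps28, Rpl13a, Rpl22, Rps20, Rpl37a, Rpl24 and Rpl4 were also among the 15.

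The count depended on single libraries. It was 3 without Ars2 KO library 1, 3 without library 2 and 25 without library 3, and 8 and 3 without CD28 Y170F libraries 1 and 2, whereas the median stayed between 0.16 and 0.22. With DESeq2 34 members rose. Rpl10a and Rpl39 were called with each library left out in turn. Summed over the 83 genes, the level was 58038 to 61270 CPM in Ars2 KO, 50623 to 54799 in CD28 Y170F and 54189 to 55641 in WT. WT lay between the genotypes or within the CD28 Y170F range. Against WT, Rpl10a differed by 0.38 (adjusted p = 0.0078), while Rpl39 (0.32, adjusted p = 0.098) and Rpl32 (0.23, adjusted p = 0.16) did not pass.

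Of 41 translation factors, a list put together after values had been seen, 4 (9.76%) rose and 0 fell. Over all genes 1.53% were called. Eif3f, a subunit of the initiation factor that recruits mRNA to the small ribosomal subunit, was at 308, 295 and 265 CPM against 235, 229 and 227 (log2 fold change 0.33, adjusted p = 0.0019). Eif3h, another subunit of it, had a log2 fold change of 0.29, Pabpc1, the cytoplasmic poly(A)-binding protein, 0.32, and Eef2, the translocation factor of elongation, 0.25. Eif3f alone of the 4 stayed called with each library left out. Pabpc1 and Eef2 lost their calls on leaving out 5 of the 6 in turn. Of 31 ribosome biogenesis genes 0 passed in edgeR, with 0 at an unadjusted p under 0.05 and 0 called by DESeq2 or limma-voom. Of the 31, 28 lay below 0 (median -0.12), where 50.2% of all genes lay above 0. Their summed level was 5819, 6948 and 8711 CPM in Ars2 KO and 7024 to 8028 CPM in CD28 Y170F. The Ars2 KO libraries thus lay on both sides of the CD28 Y170F range. Of 80 mitochondrial ribosomal protein genes 0 passed in edgeR (median -0.05), with 3 at an unadjusted p under 0.05 and 1 called by each of DESeq2 and limma-voom.

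mRNAs of ribosomal proteins and several translation factors are known to begin with a run of pyrimidines at the transcription start. The windows below show 15 bases before to 15 bases after the RefSeq start (build GRCm38.p6) for 7 of the ribosomal protein genes that rose and for Eif3f and Eef2, with the longest run of C and T on the transcribed strand in capitals. They are shown because they span the longest and the shortest runs among the genes that rose.
Rps18: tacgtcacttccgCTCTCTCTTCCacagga
Rpl34: cgCCTTCCCTgacgtacttcctgtccggcg
Rpl39: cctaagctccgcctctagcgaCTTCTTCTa
Rpl13a: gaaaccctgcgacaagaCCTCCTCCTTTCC
Rpl10a: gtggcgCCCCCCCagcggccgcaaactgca
Rps3: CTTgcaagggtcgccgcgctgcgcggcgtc
Rpl24: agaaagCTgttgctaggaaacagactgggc
Eif3f: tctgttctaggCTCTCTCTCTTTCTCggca
Eef2: tataaaaggCCgggcgttgacgtcagcggt

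The marked run crosses the listed start in Rps18 and Eif3f alone of the 9 windows. It lies after the start in Rpl39 and Rpl13a and before it, outside the listed transcript, in the other 5. In Rpl24 and Eef2 the longest run is only 2 bases and recurs in the window, also after the start, and the first is marked. The windows lie on the minus strand at chr17:33955651-33955680 for Rps18, chr3:130730384-130730413 for Rpl34, chrX:37085208-37085237 for Rpl39, chr7:45128731-45128760 for Rpl13a and chr7:99483695-99483724 for Rps3. They lie on the plus strand at chr17:28328456-28328485 for Rpl10a, chr16:55966260-55966289 for Rpl24, chr7:108934400-108934429 for Eif3f and chr10:81176616-81176645 for Eef2. A run of at least 8 pyrimidines was found in the window of 5 of 11 ribosomal protein genes that rose and had a listed start (45.5%). It was found in 20 of 52 ribosomal protein genes that did not pass (38.5%), in 19 of 133 of all genes that rose (14.3%) and in 1348 of 11269 of all genes tested (12.0%). Within the family the share was similar in members that rose and in members that did not pass, and no test was made of the difference.

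**Figure D3:**
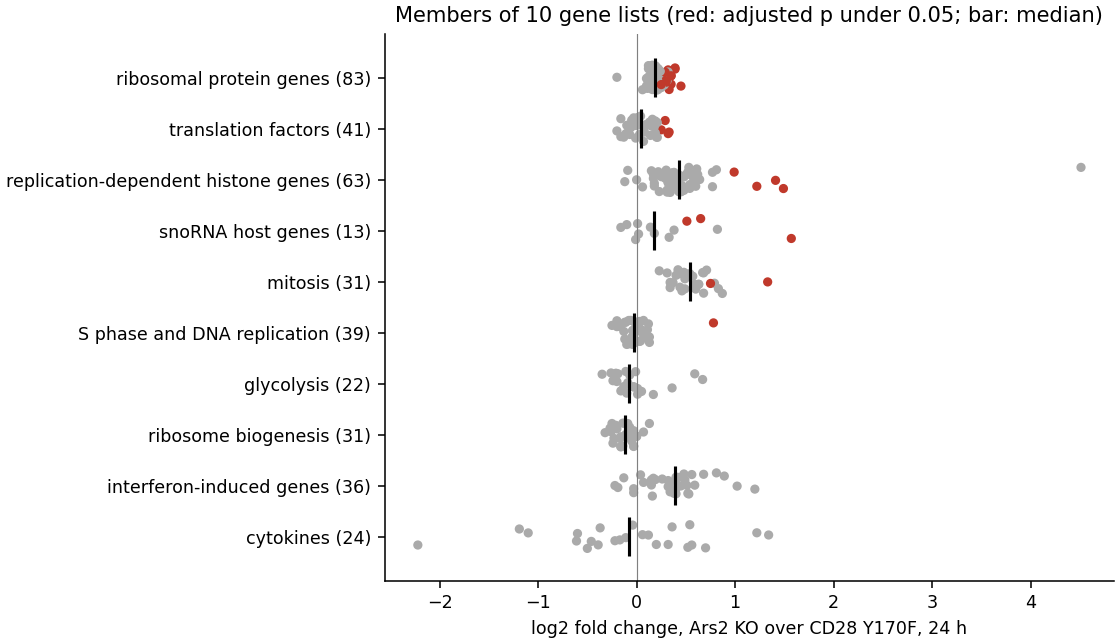
Log2 fold change at 24 h (horizontal axis, Ars2 KO over CD28 Y170F) of each tested member of 10 gene lists, with the number of members in brackets and the median as a black bar. Red points passed at an adjusted p under 0.05. Ribosomal protein, histone and mitosis genes lie almost entirely above 0, while glycolysis and ribosome biogenesis genes centre just below 0.

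Replication-dependent histone genes encode the bulk of chromatin histones in S phase, and their mRNAs end in a stem-loop instead of a poly(A) tail. The libraries were made from total RNA after removal of ribosomal RNA, with random priming, so such mRNAs were captured. Of 63 tested genes, 4 (6.35%) rose and 0 fell by edgeR, where 1.53% of all genes were called. At an unadjusted p under 0.05 there were 23, and DESeq2 called 6 and limma-voom 4. The median log2 fold change of the 63 was 0.43, and 60 values lay above 0, beside 50.2% of all genes. Summed over the 63 genes, the level was 5969 to 7346 CPM in Ars2 KO and 4099 to 5634 in CD28 Y170F. WT read 6409 CPM in number 1, within the Ars2 KO range, and 2647 CPM in number 4, below both genotypes. The H4 gene Hist1h4i was at 30.8, 33.3 and 29.9 CPM against 12.6, 11.3 and 16.3, clear of the CD28 Y170F range (log2 fold change 1.22, SE 0.17, adjusted p = 0.00012). Hist1h2bf was at 16.5, 20.8 and 10.9 CPM against 7.12, 3.19 and 6.75 (log2 fold change 1.49, adjusted p = 0.00043). Hist2h2be was at 16.7, 11.3 and 10.4 CPM against 5.71, 4.46 and 4.24 (log2 fold change 1.41, adjusted p = 0.0036). For these 3 the groups did not overlap, WT lay with CD28 Y170F, and the call held with each library left out. Hist1h2ad (log2 fold change 0.99, adjusted p = 0.03) lost its call on leaving out 4 of the 6 libraries in turn. Histone genes are near-identical copies, and the split of reads among them is uncertain. H2afj, a histone variant gene outside the list that was picked after its values were seen, was at 49.0, 45.7 and 45.7 CPM against 30.3, 31.2 and 31.4 (log2 fold change 0.60, adjusted p = 0.0022).

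Stem-loops were searched on the sense strand of GENCODE M21 transcripts with a pattern of 2 G, 3 free bases, 3 T, 2 free bases, AG, 2 free bases and 2 C. Of the 4 genes that rose 3 held a match, shown with the stem in capitals and the loop in lower case.
Hist1h2ad: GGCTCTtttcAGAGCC
Hist1h2bf: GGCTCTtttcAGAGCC
Hist1h4i: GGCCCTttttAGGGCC

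The search covered whole transcripts. The match lay 43 bases from the transcript end in Hist1h2ad and 30 in Hist1h2bf. In Hist1h4i it lay 331 bases from the end of a transcript of 727 bases, so not at its end. No match to these letters was found in the transcript of Hist2h2be. A match was present in 42 of the 63 histone genes tested (66.67%) and in 390 of 18199 genes with a transcript (2.14%). At 72 h the histone genes did not show the same pattern as a family, with 1 that rose, 2 that fell and a median of -0.22. The 1 that rose was Hist2h2be, called on both days (0.85 at 72 h, edgeR adjusted p = 0.012). Its difference between the days did not pass (-0.56, adjusted p = 0.33). The days differed for Hist1h4i (difference -1.20, adjusted p = 0.0019), Hist1h2bf (-1.62, adjusted p = 0.0014) and Hist1h2ad (-1.10, adjusted p = 0.028). Of 11 histone mRNA processing factors 0 passed in edgeR at 24 h, with 2 at an unadjusted p under 0.05 and 0 called by DESeq2 or limma-voom.

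Few mitosis genes passed singly, though the fitted values lay on 1 side. All 31 tested had a log2 fold change above 0, beside 50.2% of all genes, with a median of 0.54. By edgeR 2 (6.45%) rose, where 1.53% of all genes were called. At an unadjusted p under 0.05 there were 23, and DESeq2 called 4 and limma-voom 3. Ccnb2, the cyclin B2 that drives entry into mitosis, was at 24.6, 32.8 and 15 CPM against 9.14, 6.59 and 13.1 (log2 fold change 1.33, adjusted p = 0.0042). Cenpa, the centromeric histone, was at 65.5, 80.9 and 44.9 CPM against 39.4, 32.3 and 42.0 (log2 fold change 0.75, adjusted p = 0.012). In both genes Ars2 KO library 3 sat just above the highest CD28 Y170F library. Ccnb2 lost its call without Ars2 KO library 2 (adjusted p = 0.067) and without CD28 Y170F library 2 (adjusted p = 0.058). Cenpa lost its call without Ars2 KO library 1 (adjusted p = 0.052) or 2 (adjusted p = 0.16) and without CD28 Y170F library 2 (adjusted p = 0.12).

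Nusap1 and Cenpf, next in order of p, had log2 fold changes of 0.83 (adjusted p = 0.084) and 0.87 (adjusted p = 0.10). Other genes with roles in division rose too, named after their values had been seen or by their size of change. They included Racgap1 (0.63) and Depdc1b (1.02), Psrc1 (1.29) and Fam83d (1.12), which act on the spindle, Pimreg (1.05), and Anapc11 (0.63) and Anapc15 (0.86), subunits of the anaphase-promoting complex. Racgap1, Depdc1b, Fam83d and Pimreg each lost their call on leaving out 4 of the 6 libraries in turn and Psrc1 on 3, whereas Anapc11 and Anapc15 kept theirs. Summed over the 31 mitosis genes, the level was 3095, 3918 and 3146 CPM in Ars2 KO and 2185, 1763 and 2898 CPM in CD28 Y170F. WT read 3444 CPM in number 1 and 1378 CPM in number 4, a wider gap than that between the genotypes compared.

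Far fewer S phase genes lay above 0, at 16 of 39. Of the 39 tested, E2f2, a transcription factor that activates S phase genes, was the 1 that rose (81.0, 91.0 and 73.5 CPM against 48.5, 43.7 and 50.6, log2 fold change 0.78, adjusted p = 0.027), and the median was -0.03. E2f2 lost its call on leaving out 5 of the 6 libraries in turn. Of 24 DNA damage response genes 0 passed in edgeR, with 2 at an unadjusted p under 0.05 and 0 called by DESeq2 or limma-voom.

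Several noncoding genes were among the clearest increases. Of 3240 noncoding genes tested 31 (0.957%) were called, 25 higher and 6 lower, beside 239 of 13359 protein-coding genes (1.79%), 154 higher and 85 lower. Of 559 lincRNA genes 8 (1.43%) were called, a share near the 1.53% of all genes, and all 8 were higher. 1600020E01Rik was at 55.1, 40.0 and 47.8 CPM against 16.2, 15.1 and 12.5, with WT at 12.4 and 15.2 (log2 fold change 1.70, SE 0.21, adjusted p = 2.3e-05). Gm29170 was at 28.8, 28.9 and 41.5 CPM against 15.2, 15 and 17.1 (log2 fold change 1.06, adjusted p = 0.0001). Gm19585 was at 26.8, 23.4 and 29.7 CPM against 7.33, 5.88 and 9.66 (log2 fold change 1.8, adjusted p = 0.00018). These 3 genes were picked after their values were seen. All 3 were about as far above WT as above CD28 Y170F, with log2 fold changes against WT of 1.8, 1.05 and 1.58, and each call held with every library left out. At 72 h 1600020E01Rik (1.61) and Gm29170 (1.49) were again higher, while Gm19585 was not (-0.24, difference between days -2.04, adjusted p = 0.00072).

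Small nucleolar RNAs are cut from introns of host genes whose spliced transcripts often code for no protein. Of 13 host genes tested 3 (23.1%) rose and 0 fell, where 1.53% of all genes were called. Snhg3 was at 32.7, 36.5 and 40.6 CPM against 13.7, 8.16 and 15, with WT number 1 between them at 20.4 and WT number 4 within the CD28 Y170F range at 11.7 (log2 fold change 1.57, SE 0.22, adjusted p = 0.00023). Snhg8 was at 46.5, 40.3 and 38.6 CPM against 30.7, 26.3 and 30.8 (log2 fold change 0.51, adjusted p = 0.00088). Epb41l4aos had a log2 fold change of 0.65 (adjusted p = 0.021) and lost its call on leaving out 4 of the 6 libraries in turn. The small nucleolar and Cajal body RNAs themselves gave 0 edgeR calls among 66 tested, with a median of 0.39, 9 at an unadjusted p under 0.05, 3 called by DESeq2 and 1 by limma-voom. Snora73b, which lies within Snhg3 on the same strand, was at 80.4, 77.2 and 62.4 CPM against 52.4, 22.7 and 56.9 (adjusted p = 0.07), and reads of the 2 genes overlap in position. At 72 h 10 of the 13 host genes rose, where 15.4% of all genes were called higher.

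Other RNA-processing lists gave few calls. Of 14 microRNA processing genes, 34 splicing regulators and 6 microRNA host transcripts 0 passed in edgeR, with 0 at an unadjusted p under 0.05 and 0 called by DESeq2 or limma-voom. Mir155hg, host of the activation-induced miR-155, was at 10.8, 11.8 and 11.3 CPM against 16.2, 11.3 and 15.3 (adjusted p = 0.54). Among 25 genes of nuclear decay and 3′ end processing, Ints13, an Integrator subunit, was called at a log2 fold change of 0.28 (adjusted p = 0.045), a call lost on leaving out any of the 6 libraries.

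Metabolic gene lists of activated T cells gave no edgeR calls at 24 h. The lists were 22 glycolysis genes (median -0.08), 33 oxidative phosphorylation genes (median 0.02), 18 hypoxia genes, 22 ATF4 and amino acid genes and 26 lipid synthesis genes. At an unadjusted p under 0.05 these gave 2, 2, 2, 0 and 1 genes, and of all of them DESeq2 called 1, a hypoxia gene, and limma-voom 0. Pkm, the pyruvate kinase gene whose splicing shifts in activated T cells, was at 614, 759 and 852 CPM against 700, 779 and 793, with fully overlapping groups (log2 fold change -0.03, adjusted p = 0.99). Gene counts do not show its isoforms. Among NRF2 antioxidant genes, Srxn1, sulfiredoxin, was the 1 of 18 called by edgeR, where DESeq2 called 2, at 0.781, 1.57 and 1.62 CPM against 3.34, 3.39 and 4.59 (log2 fold change -1.51, adjusted p = 0.023). It was lower still against WT (-2.24), and its call was lost on leaving out 4 of the 6 libraries in turn.

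Lists of T cell function gave no edgeR calls or 1. Of 24 cytokines, 21 effector genes, 25 naive and quiescence genes and 36 interferon-induced genes 0 passed, with medians of -0.07, 0.36, 0.00 and 0.39. At an unadjusted p under 0.05 they gave 3, 4, 1 and 8 genes, and DESeq2 called 2 effector genes and 0 of the others, limma-voom 0 in all. Lif was at 31.1, 48.1 and 123 CPM against 107, 92.6 and 87.2, and Ifng at 17.9, 54.4 and 16.3 CPM against 18.0, 13.6 and 23.1, with 1 Ars2 KO library far above the others in each case. Of 28 early activation genes Nfkbid fell. Nfkbid, an atypical inhibitor of NF-κB induced by antigen receptor signals, was at 31.3, 40.7 and 50.4 CPM against 77.9, 79.0 and 62.6 (log2 fold change -0.84, adjusted p = 0.0042). Without Ars2 KO library 1 its adjusted p was 0.052.

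Some transcriptional and signalling regulators rose, Myb and Dusp10 among them being picked after their values were seen. Myb, a transcription factor of proliferating lymphocytes, was at 99.7, 112 and 71.1 CPM against 46.2, 43.8 and 45.7 (log2 fold change 1.06, SE 0.17, adjusted p = 0.0013), and the call held with each library left out. Mxd1, an antagonist of MYC, was at 92.3, 104 and 82.0 CPM against 52.0, 44.5 and 43.2 (log2 fold change 0.99, adjusted p = 0.025). WT number 4, at 73.1 CPM, lay nearer to Ars2 KO for Mxd1 than did number 1, at 40.7. Stat5a, a transcription factor of IL-2 signalling, differed little (0.31, adjusted p = 0.03). The calls of Mxd1 and Stat5a were lost on leaving out 5 of the 6 libraries in turn. Dusp10, a phosphatase of stress-activated kinases, had a log2 fold change of 1.07 (adjusted p = 0.01) and lost its call on leaving out 2 of the 6.

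Other genes with the largest increases had varied roles. Tkfc, which encodes triokinase, was at 15.6, 14.8 and 16.2 CPM against 7.33, 5.93 and 7.94 (log2 fold change 1.13, adjusted p = 5.6e-05). Fam19a3, a secreted chemokine-like protein, was at 16.3, 12.8 and 8.72 CPM against 3.78, 1.93 and 5.03 (log2 fold change 1.81). Neb, the giant muscle protein nebulin, was at 63.8, 54.3 and 40.1 CPM against 24.1, 15.7 and 22.0 (log2 fold change 1.36), with WT number 4 between the groups at 38.7. These 3 calls held with each library left out. Calhm6, a channel gene, had a log2 fold change of 1.31, Tspan9, a tetraspanin, 1.66, Neurl1b, an E3 ligase of the Notch pathway, 1.31, and Pros1, the anticoagulant protein S, 1.24. Of those, Calhm6 kept its call with each library left out, Tspan9 and Neurl1b lost theirs on 4 of the 6 and Pros1 on 5.

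Among genes that fell, Tmem154 was the most even. This membrane protein gene of little known function was at 20.1, 20.6 and 20.4 CPM in Ars2 KO and 47.0, 45.8 and 43.9 in CD28 Y170F, with WT at 45.8 and 36.9 (log2 fold change -1.16, SE 0.11, adjusted p = 3.5e-07). Ccdc91, which acts in traffic from the Golgi, was at 7.52, 7.24 and 7.87 CPM against 15.3, 14.1 and 14.7 (log2 fold change -0.96, adjusted p = 1.6e-06). Ndor1, a flavoprotein that feeds electrons to cytosolic iron-sulfur assembly, was at 36.4, 34.1 and 27.0 CPM against 59.4, 58.2 and 54.2 (log2 fold change -0.82, adjusted p = 5.9e-05). In all 3 genes the spread within a group was a fraction of the gap between groups.

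Further genes of the same kind were Rnf157, an E3 ubiquitin ligase (-1.19), Pde6d, a carrier of prenylated proteins (-1.07), Tulp3, a ciliary traffic adaptor (-0.84), Dzip3, an E3 ligase (-0.77), and Slc20a2, a phosphate transporter (-0.76). Against WT these 8 genes had log2 fold changes of -1.03 for Tmem154, -1.02 for Ccdc91, -0.77 for Ndor1, -1.41 for Rnf157, -0.93 for Pde6d, -0.81 for Tulp3, -0.73 for Dzip3 and -0.85 for Slc20a2, and each passed there. All 8 stayed called with each library left out. Cpm, a carboxypeptidase gene (-0.96), lost its call on 1 of the 6 and Pam, a peptide-amidating enzyme (-0.86), on 5.

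Transcripts of other blood cells differed between the libraries. Of 14 markers of basophils and mast cells, a list put together after values had been seen, 5 (35.7%) rose, where 1.53% of all genes were called. The 5 were Cyp11a1, Gata1, Mcpt8, Csf2rb and Prss34. Cyp11a1 and Gata1 kept their calls with each library left out, whereas Csf2rb lost its call on 5 of the 6, Prss34 on 4 and Mcpt8 on 3. DESeq2 called 6 of the 14 and limma-voom 2. The summed level of the list was 31.9, 55.3 and 18.5 CPM in Ars2 KO, 11.8, 8.51 and 12.0 in CD28 Y170F and 10.8 to 11.5 in WT. Mcpt8, a basophil protease, was at 2.34, 6.36 and 0.811 CPM against 0.0439, 0 and 0.441, so the CD28 Y170F values were close to 0 and Ars2 KO library 2 was highest. Myeloid markers summed to 15.7, 26.1 and 9.69 CPM against 6.98, 5.52 and 6.53, with C1qa at 0 in both genotypes and Lyz2 the 1 of 9 called by edgeR (log2 fold change 2.94, adjusted p = 0.024). The call of Lyz2 was lost on leaving out 4 of the 6 libraries in turn, and limma-voom called 0 of the 9.

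B cell markers summed to 9.71, 8.96 and 7.22 CPM in Ars2 KO and 89.1, 22.7 and 6.40 in CD28 Y170F, led by CD28 Y170F library 1. Of the 7, edgeR called 0, with all 7 at an unadjusted p under 0.05, DESeq2 called 1 and limma-voom 0. Bank1, a B cell scaffold gene, followed them at 1.82, 1.22 and 1.34 CPM against 9.57, 3.85 and 2.16 (log2 fold change -1.84), and its adjusted p was 0.23 without CD28 Y170F library 1. Igha, the constant gene of immunoglobulin A, went the other way, at 37.4, 23.1 and 39.1 CPM against 7.99, 0.456 and 1.68 (log2 fold change 3.27, adjusted p = 0.015). It lost its call without CD28 Y170F library 2 (adjusted p = 0.11), without library 3 (adjusted p = 0.082) and with DESeq2 (adjusted p = 0.19). Igha comes from a list of 16 tested plasma cell and immunoglobulin constant genes, put together after values had been seen. The list was mixed, with 2 that rose, 10 values above 0 and 6 below (median 0.43). Its sums overlapped, at 440 to 545 CPM in Ars2 KO and 349 to 460 in CD28 Y170F. The part of these cells in the other differences was not tested.

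**Figure D4:**
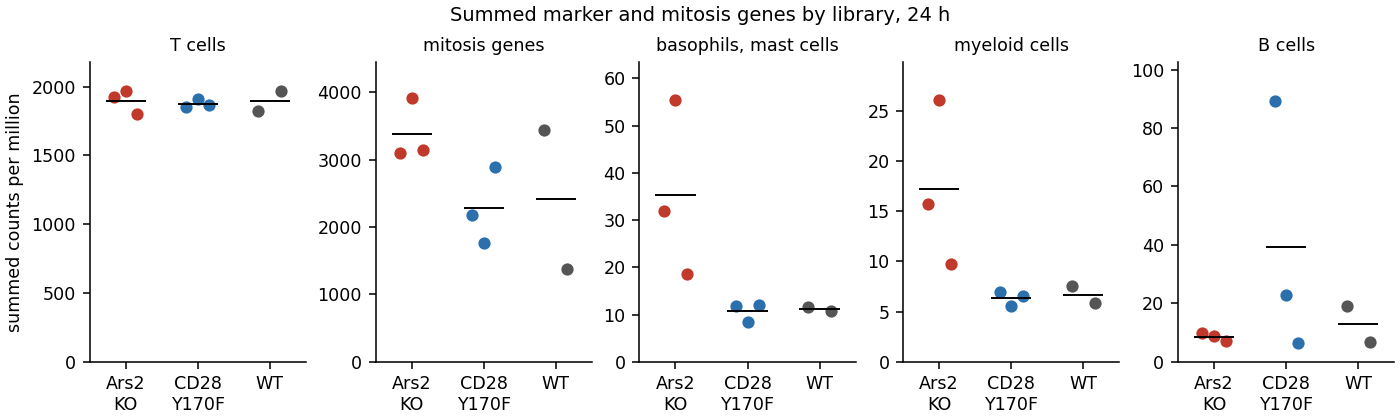
Summed CPM at 24 h (vertical axes, each from 0) of T cell markers, mitosis genes and markers of basophils and mast cells, myeloid cells and B cells, 1 point per library in Ars2 KO (red), CD28 Y170F (blue) and WT (grey), with the mean as a bar. T cell markers are level, basophil and myeloid sums are highest in Ars2 KO library 2, at 55.3 and 26.1, and the B cell sum is highest in CD28 Y170F library 1, at 89.1.

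The same genotypes were compared at 72 h in 6 other libraries, where 5354 genes (29.3%) were called, against 280 at 24 h. In both genotypes, libraries with the same number were read as the same sex on both days. Whether 1 mouse gave libraries on both days was not tested, and the fit took the libraries as independent. Of the 280 genes called at 24 h, 132 (47.1%) were called in the same direction at 72 h, 12 (4.29%) in the opposite direction and 136 not at all. By direction, 15.4% of all genes were called higher and 13.8% lower at 72 h, against 43.1% of the 188 that rose at 24 h and 55.4% of the 92 that fell. The 12 that turned were Myb, 6430571L13Rik, Nfkbid, Cenpa, Bst1, Srxn1, Rnaset2b, 2700049A03Rik, Eef2, Depdc1b, Traf3 and Plac8. The difference between the days itself passed for 2365 genes (12.9%) and for 81 of the 280. That number was 1187 without Ars2 KO library 1 at 24 h and 1573 without library 2.

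**Figure D5:**
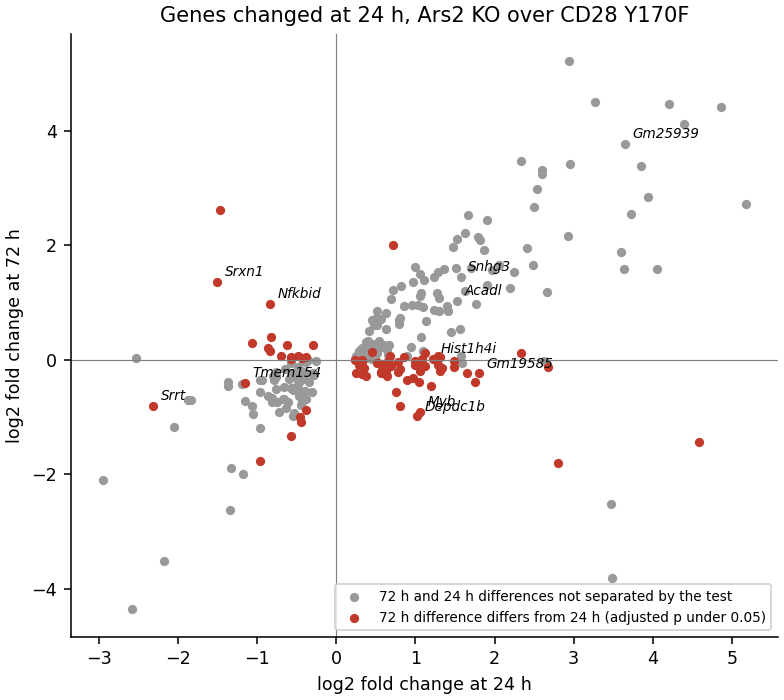
Log2 fold change at 72 h (vertical axis) against that at 24 h (horizontal axis), Ars2 KO over CD28 Y170F, for 276 of the 280 genes called at 24 h, with 4 genes beyond 6 on either axis not drawn. Red points differed between the days at an adjusted p under 0.05. Snhg3, Acadl and Gm25939 are higher on both days, Hist1h4i and Gm19585 are near 0 at 72 h, and Nfkbid, Srxn1, Myb and Depdc1b change sign.

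Several lists with 0 calls at 24 h had many at 72 h. Ribosome biogenesis genes went from 0 calls to 28 that rose of 31 (median 1.11), cytokines from 0 to 16 of 24 (median 1.68), and naive and quiescence genes from 0 to 24 that fell of 25 (median -1.0). Interferon-induced genes went from 0 to 14 that fell of 36 (median -0.52). Fewer ribosomal protein genes were called at 72 h, where 5 rose and 1 fell, and of the mitosis genes 0 rose and 1 fell. Translation factors went from 4 that rose at 24 h to 17 that rose and 1 that fell, with medians of 0.04 and 0.26. Basophil and mast cell markers went from 5 to 11 that rose, with medians of 2.51 and 2.76. Over all genes the share called higher was 1.03% at 24 h and 15.4% at 72 h. The share called lower was 0.503% and 13.8%. Among genes named by size, the leading differences between the days were those of cytokine genes. Lif moved from a log2 fold change of -0.50 at 24 h to 4.26 at 72 h (difference 4.76, adjusted p = 0.00063), Lta from -0.61 to 3.35 and Ifng from 0.70 to 4.22. Cish, a feedback inhibitor of cytokine signalling, moved from -0.12 to 2.91 and Tgm2, a transglutaminase, from -0.06 to 3.34. In each of these genes Ars2 KO library 3 was the lowest Ars2 KO library at 72 h. Ifng was then at 18.1, 24.2 and 1.11 CPM against 1.1, 0.549 and 0.662 in CD28 Y170F, so library 3 lay at the reference level. Lif was at 99.9, 153 and 30.5 CPM against 9.42, 2.65 and 2.65, and Tgm2 at 58.6, 79.7 and 16.4 CPM against 13.6, 1.01 and 0.52. In the other direction Cables1, Cnga1, Dapl1, Depdc1b and Arl5c had differences of -2.53, -2.37, -2.03, -2.01 and -2.0.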

How the data were processed

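The authors deposited 1 table of expected counts per gene, as RSEM gives them, for 34 libraries and 48526 genes. Libraries were dUTP-stranded, paired and made from RNA freed of ribosomal RNA, per the labels' protocols. The builds mm10 and GRCm38 and the tools STAR, RSEM, limma, FastQC and bcl2fastq 2.20 are named in the submitters' processing notes. The strand setting of counting, the annotation release and any filter are not given in the sources used here. Gene names and positions came from GENCODE M21, which matched 48144 identifiers (99.2%). Sequences came from RefSeq GRCm38.p6 and GENCODE M21.

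Expected counts were rounded and tested in edgeR 4.0.16 (R 4.3.3) by the quasi-likelihood F test, with 1 mean per group over all 34 libraries in 13 groups, TMM scaling and filterByExpr. That left 18292 genes, and p-values were adjusted over all of them by Benjamini-Hochberg. The fit was also run on counts simulated from its own fitted means and spread, with known folds and independent libraries. Such a run cannot show effects of shared mice or batches. Total counts ran from 8.3 to 47.8 M (the SI prefix mega) per library. Alternatives were DESeq2 1.42.0, limma-voom 3.58.1, RLE scaling, no filter, the compared groups alone, a replicate block, sex as a term, protein-coding genes alone, a test against a fold of 1.2, a pooled reference and each library left out. The members and gene lists were chosen with earlier results of these data known, so no list was tested as a set. The ribosomal protein list was corrected after its values were seen, to leave out S6 kinase genes and take in Rpsa. Named genes were Srrt, Cd28 and Pkm, then up to 15 per direction by fold among genes reaching 3 in mean log2 CPM whose groups did not overlap, up to 4 per list by p or every called member where 5 or fewer passed, and 5 per direction between the days. Numbered predicted genes, mitochondrial, ribosomal protein, antigen receptor, Xist and Y-linked genes stayed outside the ranking by fold. Genes picked beyond this rule are marked as such. The values of 1 gene are not reported here, though counts include it.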

Additional observations from a re-analysis of the deposited data

Results flagged for a closer look

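The 24 h difference between Ars2 KO and CD28 Y170F was tested against the 72 h difference, which comes from other libraries. The fit took the libraries of the days as independent. Among the genes named, those below had a difference between the days at an edgeR adjusted p under 0.05. Each value is the log2 fold change at 72 h minus that at 24 h. Among cytokine and signalling genes the values were 4.76 for Lif, 3.96 for Lta, 3.52 for Ifng, 3.40 for Tgm2, 3.04 for Cish, 1.82 for Nfkbid, 1.48 for Mir155hg, -0.87 for Cd28, -1.53 for Ctla4, -1.12 for Dusp10, -1.02 for Mxd1 and -1.97 for Myb. Lif, Lta, Ifng, Tgm2 and Cish had not passed at 24 h.

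The values for genes of division and histones were -1.48 for Ccnb2, -1.32 for Cenpa, -1.20 for Nusap1, -0.75 for Racgap1, -1.44 for Pimreg, -1.39 for Psrc1, -1.23 for Fam83d, -2.01 for Depdc1b, -1.0 for E2f2, -1.62 for Hist1h2bf, -1.20 for Hist1h4i and -1.10 for Hist1h2ad. For genes of the ribosome and translation they were -0.32 for Rpl39, -0.34 for Rps3, -0.24 for Rps20, -0.37 for Eif3f, -0.38 for Eif3h, -0.35 for Pabpc1 and -0.49 for Eef2.

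Srrt had a value of 1.51, its loss being smaller at 72 h. Further values were 2.87 for Srxn1, 0.75 for Tmem154, 1.06 for Pam, 0.99 for Tulp3, -0.81 for Cpm, -1.27 for Calhm6, -1.50 for Neurl1b, -0.94 for Snora73b, -1.88 for Ccdc141, -2.04 for Gm19585, -2.53 for Cables1, -2.37 for Cnga1, -2.03 for Dapl1 and -2.0 for Arl5c. The groups hold 2 or 3 libraries, too few for a test of outlying samples.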

How the results depend on the processing

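The count of 280 genes at 24 h was 555 with DESeq2, 436 without the filter, 56 with the compared groups alone, 89 against a fold of 1.2 and 554 with CD28 Y170F and WT as a pooled reference, and 101 to 490 with 1 library left out. It stayed within 1.5 times with RLE scaling (282), limma-voom (363), sex as a term (279, of which 244 shared) and protein-coding genes alone (288). The 2365 genes differing between the days became 1187 to 3170 with 1 library left out. The 73 genes against WT became 206 with DESeq2 and 28 to 201 with 1 library left out, and the 10 of CD28 Y170F against WT became 25 and 6 to 25. Where a WT library was left out, the lone one was assumed to vary like other groups. With the replicate block added to the fit of the compared groups alone 11 genes passed, all among the 280. Deviations of libraries that share a number correlated at 0.21, -0.19 and -0.06, and not every library correlated best with its own number. Deviations from means of 3 libraries cannot decide whether the numbers pair libraries, so a pairing or shared batch is not excluded. Of 108 called genes examined, 0 changed sign under any of these settings that gave a value. In the fit of the compared groups alone 69 lost their call, and 98 with the replicate block added to it. No cause of these shifts was tested. Groups of 3 libraries limit small differences, and low genes such as Mcpt8 and Unc80 rest on few counts.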

Other observations

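Among 18 inhibitory and costimulatory receptors 0 were called by edgeR at 24 h, with 4 at an unadjusted p under 0.05 and 1 called by each of DESeq2 and limma-voom. Lag3, an inhibitory receptor that binds MHC class II, was at 70.2, 68.9 and 50.0 CPM in Ars2 KO and 33.1, 32.1 and 30.2 in CD28 Y170F. The groups did not overlap, but the difference did not pass (log2 fold change 0.99, edgeR adjusted p = 0.096). WT number 1 read 33.1 CPM and WT number 4 read 67.0 CPM. Gzma, which encodes the protease granzyme A, was at 5.95, 3.57 and 3.57 CPM against 1.84, 0.861 and 1.06 (log2 fold change 1.78, edgeR adjusted p = 0.12), and WT read 1.15 and 6.45 CPM in numbers 1 and 4. At both genes WT number 4 lay with or above Ars2 KO.

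Of 25 p53 targets edgeR called 1 at 24 h, Eda2r, while DESeq2 and limma-voom called 2 each and 7 had an unadjusted p under 0.05. At 72 h 12 rose and 7 fell by edgeR, where 15.4% of all genes were called higher and 13.8% lower. Of 12 regulatory T cell genes, 16 helper subset regulators and 14 memory and Ly6 surface antigens edgeR called 0 at 24 h, with 1, 6 and 2 at an unadjusted p under 0.05 and 0 called by DESeq2 or limma-voom. Foxp3, the lineage factor of regulatory T cells, was at 27.3, 24.4 and 21 CPM against 22.4, 15.5 and 19.9, with groups that overlapped. At 72 h 7 regulatory T cell genes rose and 2 fell. Myo7a, an unconventional myosin, and Tnnt1, the slow skeletal troponin T, were picked after their values were seen. Myo7a was at 11.8, 12.9 and 16.7 CPM against 6.24, 7.14 and 6.40 (log2 fold change 1.07, edgeR adjusted p = 0.00068). Tnnt1 was at 5.51, 5.92 and 7.34 CPM against 2.28, 2.03 and 2.38 (log2 fold change 1.48, edgeR adjusted p = 0.00087). In both genes the WT libraries lay near CD28 Y170F, at 5.66 and 5.25 CPM for Myo7a and 2.88 and 1.94 CPM for Tnnt1.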
